A study of Mus musculus with 8 samples.

Results

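Vertebrate cells detect foreign or misplaced nucleic acid with dedicated sensors and answer it with interferon. Cytosolic helicases, endosomal receptors and kinases bind double-stranded RNA, and adaptors on mitochondria and the endoplasmic reticulum pass the signal to transcription factors of the IRF family, which switch on interferon genes. Secreted interferon then acts through a surface receptor and STAT proteins on a large set of induced antiviral genes. Fetal male germ cells are a setting of interest for this pathway, since their DNA methylation is erased and rebuilt while retrotransposons are transcribed. The genes described here are 40 of the 55487 in the deposited table, taken by name from a list of interferon response and nucleic acid sensing genes rather than by a threshold on measured values, though with earlier results of these data known. All 40 names matched 1 gene each. They were divided by known role into 8 sensors and adaptors, 8 receptor and transcription factor genes of the signalling step, and 24 genes induced by interferon.

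RNA-seq counts were available for 8 libraries of total RNA from cells of C57BL/6 fetal mouse testis, purified as germ cells by flow sorting. The 4 libraries labelled KO came from Rhox10-null mice, which lack a homeobox gene of the X chromosome, and also carried the Oct4-eGFP reporter on both alleles, a green fluorescent protein under control of the germ-cell gene Oct4. The 4 libraries labelled WT came from littermates with the same homozygous reporter and no Rhox10 mutation. The fetal age, the number of animals behind a library and the part of Rhox10 that was deleted are not given in the sources used here. No label says whether replicates stem from different animals, so p-values measure the spread between these samples, which may be technical.

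The libraries held between 16346977 and 20311338 counts. Rhox10 itself was read in all of them, at 14, 10, 18 and 22 counts in KO replicates 1 to 4 and 18, 25, 19 and 17 counts in WT replicates 1 to 4 (log2 fold change, KO over WT, -0.28, standard error 0.32, edgeR adjusted p = 0.767), so the gene count did not separate the labels, and directions below are between libraries by label. The cell label was compared with marker genes on the scale of CPM per kilobase of exon (counts scaled to a library of 1000000, with edgeR's TMM factors, and divided by exon length). The germ-cell genes Ddx4, Dazl and Pou5f1 were present at 14.6, 5.52 and 4.78 CPM per kilobase, averaged over the 8 libraries. Markers of other testis cells were far more abundant: Cyp17a1, a steroid enzyme of Leydig cells, was at 452 and Col1a1, a stromal collagen, at 447 CPM per kilobase, and Amh of Sertoli cells at 84.3. The reads of the members therefore cannot be assigned to germ cells, and fewer cells of a type and less RNA per cell cannot be told apart in such bulk samples.

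The pathway was present at very uneven levels, with most of its receptors and transcription factors well expressed and many of its induced genes sparsely read. Of the 40 members 12 averaged at least 10 CPM, 16 lay from 1 to under 10 CPM and 12 were under 1 CPM. All 12 of the lowest were interferon-induced genes; 7 of the 8 signalling genes were at 10 CPM or more, as were 3 of the 8 sensors and adaptors and 2 of the 24 induced genes. Per kilobase, the median level of the members tested was 1.15 CPM for sensors and adaptors, 4.99 for signalling genes and 0.704 for induced genes, beside 3.12 over all genes tested.

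**Figure D1:**
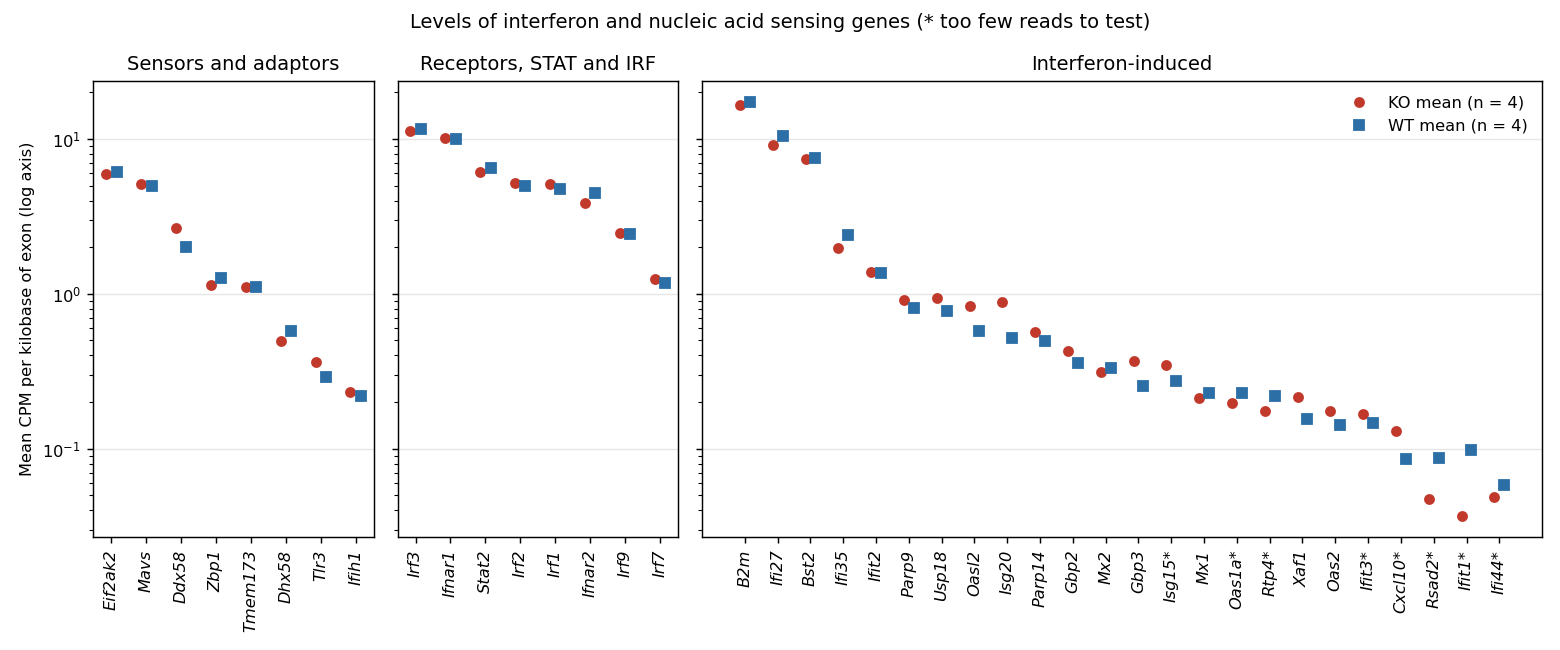
Mean level of each member in the 4 libraries labelled KO (circles) and the 4 labelled WT (squares), as CPM per kilobase of exon on a log axis, ordered within each role by level. B2m is the highest at 16.95 and Ifi44 the lowest at 0.0534 averaged over the libraries, and the 8 genes with an asterisk had too few reads to test.

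The highest levels per kilobase were those of B2m, which encodes the light chain of MHC class I, at 16.95, of Irf3 at 11.5, of Ifnar1 at 10.06, of Ifi27 at 9.78 and of Bst2, which encodes the virus-tethering membrane protein tetherin, at 7.46. The lowest were those of Cxcl10, a chemokine gene, at 0.107, of Rsad2, which encodes the antiviral enzyme viperin, at 0.0676, of Ifit1, whose product binds foreign RNA, at 0.0671 and of Ifi44 at 0.0534. Genes that respond together to interferon in other settings thus covered a wide range here: B2m and Ifit1 are both known targets and stood at opposite ends of the order.

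The members also differ in the sequence upstream of their start. Interferon-induced genes are known for the interferon-stimulated response element (ISRE), a site bound by STAT2 and IRF9. Its core was searched for as GAAANNGAAA on both strands of RefSeq promoter windows (GRCm38.p6), which run from 250 bases before to 50 bases after each start. Windows were found for 29 of the 40 members. At least 1 core lay in a window of 15 of these 29 genes (51.7%), against 1079 of the 27018 genes in the promoter table (3.99%). By role, the core was found for 3 of 5 sensors and adaptors, 2 of 8 signalling genes and 10 of 16 induced genes. Among the induced genes with a window it was found for 6 of the 7 that had too few reads to test and 4 of the 9 that were tested. The induced genes without a window were mostly tested ones: Usp18, Oas2, Mx1, Mx2, Ifi27, Parp9 and Parp14, beside Rtp4, which had too few reads. These are matches of letters in a fixed window, not measured binding sites. The members were listed as interferon genes beforehand, so their share above that of all genes describes the list and tests nothing in these libraries.

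The windows of 5 members are shown because they span the readout: Ddx58 and Oasl2 were the members higher in KO libraries, Isg15 and Ifit1 were near the detection limit, and B2m was the most abundant per kilobase. Capitals mark the core; on the strand shown it may read as its reverse complement. For Ddx58 (chr4:40239804-40239833, minus strand) the 30 bases around its core are given, since the core begins at base 3 of the RefSeq transcript. The other stretches are the 150 bases before the start, for Oasl2 at chr5:114896784-114896933 (plus strand), Isg15 at chr4:156200819-156200968 (minus strand), Ifit1 at chr19:34640739-34640888 (plus strand) and B2m at chr2:122147537-122147686 (plus strand).
Ddx58: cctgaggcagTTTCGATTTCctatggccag
Oasl2: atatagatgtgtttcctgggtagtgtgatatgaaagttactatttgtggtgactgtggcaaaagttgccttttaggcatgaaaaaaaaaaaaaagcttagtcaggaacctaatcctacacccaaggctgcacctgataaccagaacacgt
Isg15: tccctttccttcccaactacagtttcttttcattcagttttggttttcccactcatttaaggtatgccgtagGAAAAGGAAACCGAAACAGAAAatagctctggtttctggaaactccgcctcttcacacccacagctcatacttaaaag
Ifit1: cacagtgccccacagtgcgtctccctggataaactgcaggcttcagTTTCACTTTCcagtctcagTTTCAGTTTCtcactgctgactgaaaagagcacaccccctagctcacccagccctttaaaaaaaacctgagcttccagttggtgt
B2m: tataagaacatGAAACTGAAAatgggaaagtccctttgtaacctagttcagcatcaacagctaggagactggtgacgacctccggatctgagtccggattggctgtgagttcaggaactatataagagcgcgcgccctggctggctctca

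Isg15 carried 3 overlapping cores, which begin 78, 72 and 66 bases before its start. Ifit1 carried 2, at 104 and 85 bases before the start, and B2m carried 1, at 139 bases before it. The window of Oasl2 held none, so the core was present in abundant and in barely read members and in 1 of the 2 that were higher in KO libraries.

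The main comparison asked whether the interferon and sensing genes differed between libraries labelled KO and WT. Ddx58, which encodes the RNA sensor RIG-I, was 1.31-fold higher in KO libraries, and Oasl2, an interferon-induced gene of the oligoadenylate synthetase family, 1.47-fold higher; the other 30 members with enough reads did not pass the test and 8 had too few reads. A gene was called at an adjusted p under 0.05 in edgeR's quasi-likelihood test over all genes. The 2 called were 6.25% of the 32 members tested, where 5.14% of all 23190 genes tested were called, so the share of members was near that of the whole table. Both were higher in KO libraries, a direction in which 2.35% of all genes were called. None was lower, where 2.80% of all genes were. At an unadjusted p under 0.05 edgeR gave 3 members as higher and 2, Ifnar2 and Ifi27, as lower. The share of all genes at that unadjusted threshold is not given here. DESeq2 and limma voom called the same Ddx58 and Oasl2 and no member as lower. The 4 KO and 4 WT values did not overlap for 4 of the 32 members (12.5%; 9.44% over all genes tested): Ddx58, Oasl2 and Isg20 were above in KO and Ifi27 below.

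Across the 32 members tested the median log2 fold change was 0.037, beside 0.0020 over all genes tested, and 20 were above 0 and 12 below; 50.7% of all genes were above 0. By role the median was 0.016 for sensors and adaptors, 0.032 for signalling genes and 0.18 for induced genes. Induced genes and sensors were measured less precisely than signalling genes, with median standard errors of 0.18 and 0.17, against 0.064 for signalling genes. The 95% interval of the fold change lay within 1.5-fold in either direction for all 8 signalling genes, for 6 of 8 sensors and adaptors and for 6 of 16 induced genes tested, and within 2-fold for 28 of the 32 members.

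**Figure D2:**
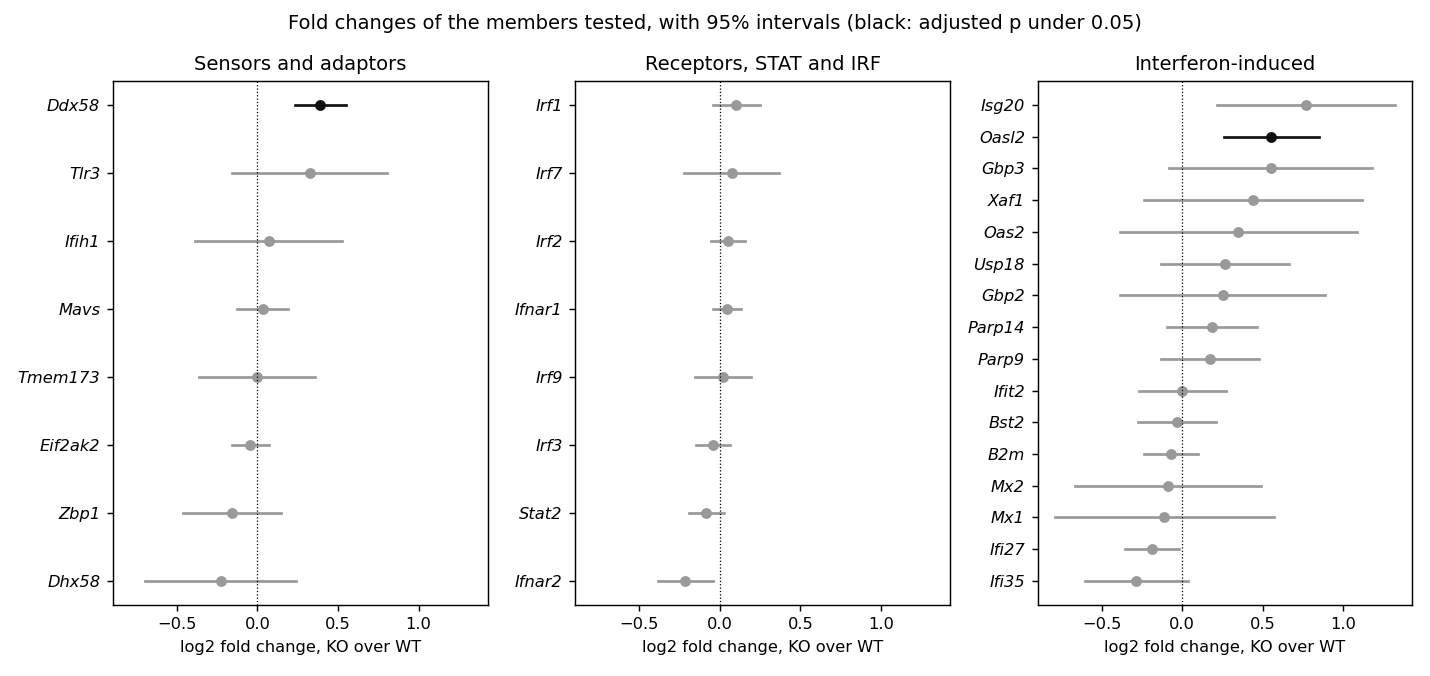
Log2 fold change, KO over WT, of the 32 members tested, by role, with 95% intervals from edgeR's quasi-likelihood fit; black marks an adjusted p under 0.05 over all genes. Ddx58 at 0.39 and Oasl2 at 0.55 are called, most intervals of the signalling genes are narrow and cross 0, and those of the sparsely read induced genes are wide.

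Of the 8 sensors and adaptors Ddx58 was the only one called. RIG-I recognises short double-stranded RNA with triphosphate ends and signals through MAVS. Ddx58 (ENSMUSG00000040296, chromosome 4 from 40203773 to 40239828, GRCm38) had 19.9, 18.1, 19.4 and 17.4 CPM in KO replicates 1 to 4 and 13.5, 14.1, 15.8 and 13.4 CPM in WT replicates 1 to 4. Every KO library was above every WT library. The means were 18.7 ± 1.15 CPM in KO libraries and 14.2 ± 1.13 CPM in WT libraries (SD, n = 4 each). The log2 fold change was 0.39 with a standard error of 0.080 (edgeR adjusted p = 0.000162), and it was between 0.36 and 0.45 when any 1 library was left out, called each time.

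Ifih1 encodes MDA5, the sensor of long double-stranded RNA, and Dhx58 encodes LGP2, a helicase of the same family that modulates both. They were read far more sparsely. Ifih1 had 1.65, 2.39, 1.94 and 1.64 CPM in KO libraries and 1.08, 1.93, 2.42 and 1.74 CPM in WT libraries (log2 fold change 0.071, edgeR adjusted p = 0.931). Dhx58 had 2.08, 1.26, 1.37 and 1.74 CPM in KO libraries and 1.81, 2.03, 2.0 and 1.68 CPM in WT libraries (-0.23, adjusted p = 0.734). The groups overlapped for both, and the 95% intervals, -0.38 to 0.53 for Ifih1 and -0.70 to 0.24 for Dhx58, include the fold change of Ddx58 for Ifih1 but not for Dhx58; the difference between the genes was not tested. Tlr3, the endosomal receptor for double-stranded RNA, was at 1.89 ± 0.610 CPM in KO libraries and 1.503 ± 0.288 CPM in WT libraries (SD, n = 4 each; log2 fold change 0.32, edgeR adjusted p = 0.580), with KO values from 1.08 to 2.45 on both sides of the WT values.

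The remaining sensors and the adaptors showed no difference beyond the spread between replicates. Eif2ak2 encodes PKR, a kinase that stops translation when it binds double-stranded RNA, and was the most abundant sensor, at 28.3, 32.1, 31.0 and 30.2 CPM in KO libraries and 31.9, 31.7, 29.8 and 32.2 CPM in WT libraries. Its log2 fold change was -0.045, with a 95% interval of -0.16 to 0.071 (edgeR adjusted p = 0.802). Mavs, the mitochondrial adaptor of RIG-I and MDA5, was at 17.03 ± 1.72 CPM in KO libraries and 16.7 ± 0.375 CPM in WT libraries (SD, n = 4 each; log2 fold change 0.032, interval -0.12 to 0.19, edgeR adjusted p = 0.908). The adaptor that RIG-I signals through was thus measured within narrow bounds while Ddx58 was higher. Tmem173, which encodes the DNA-sensing adaptor STING, was at 3.03 ± 0.641 CPM in KO libraries and 3.03 ± 0.774 CPM in WT libraries (log2 fold change 0.00048, edgeR adjusted p = 1.00). Zbp1, which encodes a sensor of Z-form nucleic acid, was at 4.01 ± 0.444 CPM in KO libraries and 4.45 ± 0.738 CPM in WT libraries (-0.16, adjusted p = 0.710).

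None of the 8 signalling genes was called; edgeR gave 1 of them an unadjusted p under 0.05, and DESeq2 and limma voom called 0. That gene was Ifnar2, which encodes the high-affinity chain of the type I interferon receptor. It had 13.4, 14.1, 10.8 and 13.2 CPM in KO libraries and 14.8, 15.8, 13.1 and 15.9 CPM in WT libraries, so that only WT replicate 3 lay among the KO values. The log2 fold change was -0.21 with a standard error of 0.087 (edgeR adjusted p = 0.162). Its partner chain Ifnar1 was the most abundant member in CPM, at 64.9, 58.4, 56.2 and 63.1 in KO libraries and 59.6, 57.0, 58.8 and 60.2 in WT libraries. Ifnar1 had a log2 fold change of 0.043 (interval -0.043 to 0.13, edgeR adjusted p = 0.728), with overlapping groups.

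Irf3 and Irf7 encode the factors that sensors activate to turn on interferon genes. Irf3 was at 38.9 ± 2.46 CPM in KO libraries and 40.01 ± 1.23 CPM in WT libraries (SD, n = 4 each; log2 fold change -0.041, edgeR adjusted p = 0.799). Irf7, itself an induced gene, was at 4.69 ± 0.8999 CPM in KO libraries and 4.45 ± 0.342 CPM in WT libraries (0.073, adjusted p = 0.885). The WT range of Irf7 lay inside its KO range, which ran from 3.43 to 5.38 CPM. Stat2 and Irf9 encode factors that carry the receptor signal to the ISRE. Stat2 had 39.3, 37.1, 35.2 and 33.7 CPM in KO libraries and 38.2, 37.1, 39.3 and 39.0 CPM in WT libraries (log2 fold change -0.082, interval -0.19 to 0.024, edgeR adjusted p = 0.499). Irf9 was at 13.2 ± 1.08 CPM in KO libraries and 13.03 ± 1.14 CPM in WT libraries (0.020, adjusted p = 0.951). Irf1, an activator of interferon and MHC class I genes, had 19.99, 20.4, 19.5 and 20.9 CPM in KO libraries and 17.1, 18.8, 18.8 and 20.5 CPM in WT libraries (log2 fold change 0.10, edgeR adjusted p = 0.547). Irf2, known as its antagonist, was at 38.3 ± 1.75 CPM in KO libraries and 36.8 ± 1.14 CPM in WT libraries (0.053, adjusted p = 0.728). Both groups overlapped for each of these 6 genes.

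**Figure D3:**
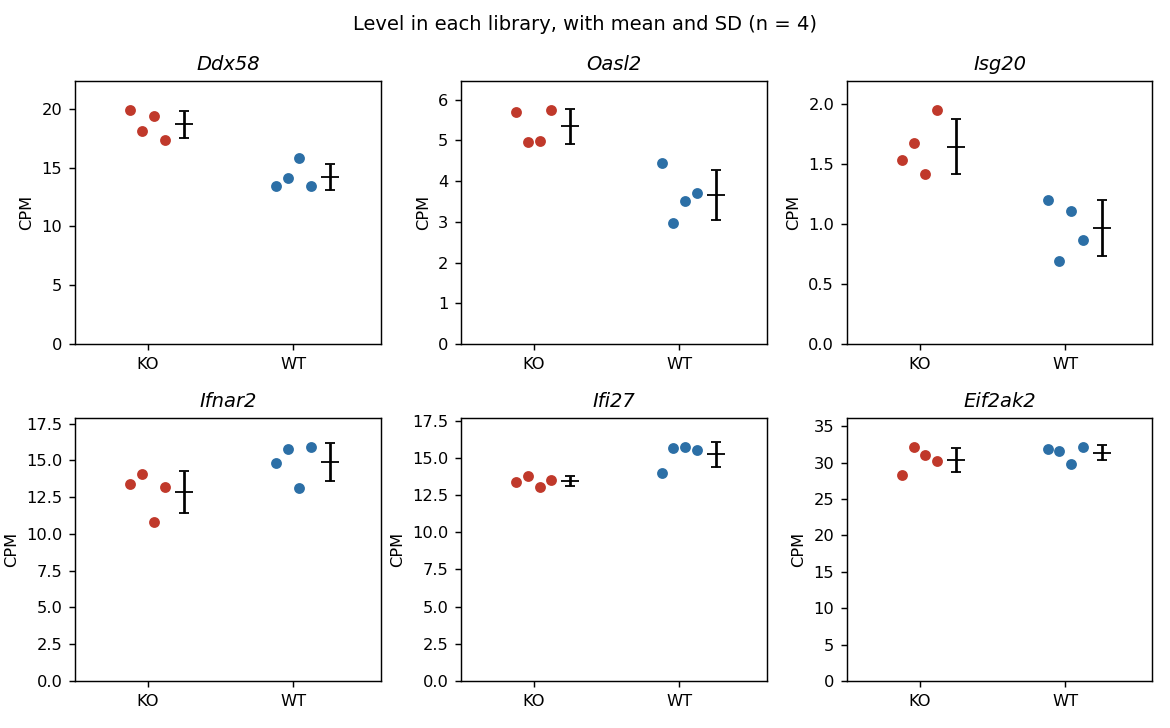
CPM in each library for 6 members, with the mean and SD of each group (n = 4) beside the points and KO on the left. Ddx58, Oasl2 and Isg20 are higher in every KO library than in any WT library and Ifi27 lower, whereas the groups overlap for Ifnar2 and Eif2ak2.

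Of the 24 interferon-induced genes 16 could be tested, and only Oasl2 was called. Oasl2 (ENSMUSG00000029561, chromosome 5 from 114896936 to 114912234) encodes a protein of the oligoadenylate synthetase family. It had 5.69, 4.96, 4.99 and 5.74 CPM in KO libraries and 4.45, 2.97, 3.53 and 3.70 CPM in WT libraries. The lowest KO library lay above the highest WT library, which was WT replicate 1. The means were 5.34 ± 0.428 CPM in KO libraries and 3.66 ± 0.611 CPM in WT libraries (SD, n = 4 each; log2 fold change 0.55, standard error 0.15, edgeR adjusted p = 0.00934). Without WT replicate 2 the log2 fold change was 0.46 and the call was lost (adjusted p = 0.0807). Of the other oligoadenylate synthetase family genes listed, Oas2 alone had enough reads to test and was not called; it was at 0.783 ± 0.241 CPM in KO libraries and 0.632 ± 0.431 CPM in WT libraries (log2 fold change 0.35, edgeR adjusted p = 0.746), with KO values inside the WT range. The untested genes of the family went either way in raw counts: Oas1b had 10, 10, 11 and 10 in KO libraries and 5, 7, 4 and 7 in WT libraries, whereas Oas3 had 4, 1, 5 and 6 in KO libraries and 5, 14, 20 and 6 in WT libraries. Both were named after their values had been seen.

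Isg20 encodes an exonuclease that degrades single-stranded RNA. It had the largest fold change of the 32 members tested, 1.71-fold higher in KO libraries, but few reads. Its counts were 25, 28, 27 and 38 in KO libraries and 20, 14, 21 and 15 in WT libraries. In CPM these were 1.53, 1.67, 1.42 and 1.95 in KO libraries, all above the WT values of 1.20, 0.694, 1.11 and 0.868. The log2 fold change was 0.77 with a standard error of 0.28, and it did not pass over all genes (edgeR adjusted p = 0.0932). Ifi27, which encodes a small mitochondrial protein, differed the other way, with 13.4, 13.8, 13.02 and 13.5 CPM in KO libraries and 14.02, 15.7, 15.7 and 15.6 CPM in WT libraries. Its groups did not overlap either, by a margin of less than 1 CPM between KO replicate 2 and WT replicate 1 (log2 fold change -0.18, standard error 0.085, edgeR adjusted p = 0.249). Ifi35, another induced gene, was at 3.43 ± 0.475 CPM in KO libraries and 4.15 ± 0.778 CPM in WT libraries (SD, n = 4 each; -0.29, adjusted p = 0.404).

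The better read induced genes other than Ifi27 and Oasl2 showed no difference beyond the spread between replicates. B2m was at 14.2 ± 0.747 CPM in KO libraries and 14.9 ± 1.29 CPM in WT libraries (SD, n = 4 each; log2 fold change -0.067, interval -0.23 to 0.0995, edgeR adjusted p = 0.793). Bst2 was at 6.67 ± 0.376 CPM in KO libraries and 6.81 ± 0.685 CPM in WT libraries (-0.033, interval -0.27 to 0.21, adjusted p = 0.940). Ifit2, the most abundant gene of its RNA-binding family, was at 5.42 ± 0.158 CPM in KO libraries and 5.39 ± 1.02 CPM in WT libraries (0.0013, interval -0.27 to 0.27, adjusted p = 0.998). For these 3 genes a difference of 1.5-fold lay outside the interval. The ADP-ribosyltransferase family members Parp9 and Parp14 had log2 fold changes of 0.17 and 0.19 (edgeR adjusted p = 0.672 and 0.596), and Usp18, whose product removes ISG15 from proteins and restrains the interferon receptor, one of 0.27 (0.587). In the annotation 458 bases of the Parp9 exons overlap those of Dtx3l on the opposite strand, so that their reads may not be separable.

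The genes of antiviral GTPases were sparse. Mx1 was at 0.802 ± 0.308 CPM in KO libraries and 0.864 ± 0.402 CPM in WT libraries, and Mx2 at 1.13 ± 0.119 CPM in KO libraries and 1.20 ± 0.379 CPM in WT libraries (SD, n = 4 each; log2 fold changes -0.11 and -0.088, edgeR adjusted p = 0.928 and 0.932). Gbp2 and Gbp3, guanylate-binding protein genes, had log2 fold changes of 0.25 and 0.55 (adjusted p = 0.799 and 0.420). The value of Gbp3 was about as large as that of Oasl2, but with 16, 21, 25 and 25 counts in KO libraries and 13, 7, 20 and 20 in WT libraries the groups overlapped and the interval ran from -0.081 to 1.18. Without WT replicate 2 the log2 fold change of Gbp3 was 0.27. Xaf1, whose product binds the apoptosis inhibitor XIAP, had 0.734, 1.91, 0.788 and 0.615 CPM in KO libraries and 0.482, 0.892, 0.895 and 0.636 CPM in WT libraries (0.44, adjusted p = 0.603). KO replicate 2 alone lay above the WT range, and without it the log2 fold change of Xaf1 was -0.046.

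The 8 members with too few reads to test were all induced genes, several of them the usual readouts of an interferon response. Isg15, which encodes the ubiquitin-like modifier, had 6, 4, 4 and 3 counts in KO libraries and 2, 3, 5 and 4 in WT libraries. Ifit1 had 1, 2, 2 and 2 counts in KO libraries and 7, 7, 4 and 1 in WT libraries. Rsad2 had 3, 2, 7 and 3 counts in KO libraries and 12, 8, 1 and 6 in WT libraries. For all 3 the groups overlapped at very low counts. Summed over a group, Ifit3 had 21 counts with KO and 19 with WT, Oas1a 26 and 32, Ifi44 22 and 25, Cxcl10 21 and 14 and Rtp4 27 and 34. The 8 genes together gave 29, 40, 50 and 37 counts in KO libraries and 56, 47, 48 and 33 in WT libraries. The ratio of summed counts scaled by library totals, KO over WT, ran from 0.372 for Ifit1 (95% interval 0.132 to 0.923) to 1.51 for Cxcl10 (0.734 to 3.22). These exact intervals cover counting error only, and 7 of the 8 include 1. With no filter on low counts, when all 40 members entered the test, the calls were again Ddx58 and Oasl2. Copies such as Ifit3 and Ifit3b, or Oas1a and Oas1g, are similar in sequence, and the handling of multi-mapping reads is not given in the sources used here.

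In the wider pathway 1.92% of the genes tested were called, where 5.14% of all genes were. Of 145 further genes (11 interferons, 37 of sensing, 25 of signalling and 72 induced) 104 could be tested; 1 was higher in KO libraries, 1 was lower and 102 did not pass. Their median log2 fold change was 0.019, and it was 0.078 for the 45 induced genes tested. The gene that was higher was Ifitm3, an interferon-induced membrane protein gene that is also an early germ-cell marker, at 2.51, 2.81, 4.62 and 2.51 CPM in KO libraries and 0.963, 1.83, 1.47 and 2.31 CPM in WT libraries. KO replicate 3 was the highest, and without it the log2 fold change was 0.66 in place of 0.92 and the call was lost (edgeR adjusted p = 0.114 in place of 0.00112). The gene that was lower was Ddx41, which encodes a helicase linked to DNA sensing and splicing, at 35.9 ± 2.77 CPM in KO libraries and 40.7 ± 2.29 CPM in WT libraries (SD, n = 4 each; -0.18, edgeR adjusted p = 0.0247). Its groups overlapped, and the call was lost in DESeq2 (adjusted p = 0.0924) and without KO replicate 1 or 3 or WT replicate 3 or 4 (0.0520, 0.238, 0.0556 and 0.171). Of the 45 induced genes tested in this wider list, 28 had log2 fold changes above 0 and 17 below. At an unadjusted p under 0.05 edgeR gave 7 of them as higher and 0 as lower. For sensing genes it gave 2 as higher and 3 as lower, and for signalling genes 1 and 2. The share of all genes at that unadjusted threshold is not given here, so these counts have no background. At an edgeR adjusted p under 0.05, 2.22% of the 45 induced genes tested were called, where 5.14% of all genes were. The KO and WT values did not overlap for 4 induced genes (8.89%, beside 9.44% over all genes tested), all above in KO.

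Interferon genes themselves were almost unread. Of the 11 listed, 5 had no read in any library and 4 had a single read in all 8 together; a count of 0 allows up to 0.183 CPM in the shallowest library (3 counts). Ifnk and Ifnz were the exceptions, at 1.15 ± 0.317 and 0.708 ± 0.0753 CPM in KO libraries and 1.01 ± 0.169 and 0.806 ± 0.110 CPM in WT libraries (SD, n = 4 each), and neither was called (edgeR adjusted p = 0.844 and 0.879). Named for its place in the pathway, after its values had been seen, Cgas, the cytosolic DNA sensor upstream of STING, was at 4.78 ± 1.02 CPM in KO libraries and 5.54 ± 0.627 CPM in WT libraries (SD, n = 4 each; log2 fold change -0.21, edgeR adjusted p = 0.518). Trex1, a DNA exonuclease gene of this pathway, is listed at 0 in every library; all of its 1147 exon bases lie within exons of Atrip on the same strand, so its value was not read as expression.

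Markers of other cells moved with the labels and are given beside these results. Levels summed over a marker list were 32.9 to 36.8 CPM in KO libraries and 39.8 to 43.6 CPM in WT libraries for 18 leukocyte genes; 11 of these could be tested, of which 0 were higher and 1 was lower. The called gene was Lyz2, at 3.74 CPM in KO libraries and 6.06 CPM in WT libraries, with overlapping groups. The 7 with too few reads went both ways. Between their extremes, C1qa had 10 counts in KO libraries together and 35 in WT libraries, and Cd52 24 and 22. Summed levels were 227 to 232 CPM in KO libraries and 201 to 217 CPM in WT libraries for 10 endothelial genes (2 higher, 0 lower). For 10 genes of duct epithelium they were 86.6 to 96.2 CPM in KO libraries and 40.9 to 43.9 CPM in WT libraries, and all 10 were higher. Over all genes tested, 2.35% were called higher and 2.80% lower. All marker lists were chosen with earlier results of these data known, so such counts do not test a change in cell types. The erythroid list (8 genes, 5 lower) summed to 94.0 to 98.7 CPM in KO libraries and 225 to 239 CPM in WT libraries. The lists of Sertoli (8, 2 lower) and Leydig cells (6, 5 lower) were also below the WT range in KO libraries. The stromal list (7, none called) was at 7730 to 7953 CPM in KO libraries and 7952 to 8045 CPM in WT libraries. Its groups overlapped only through KO replicate 2. The germ-cell list (14, 13 of them tested) overlapped, at 228 to 240 CPM in KO libraries and 238 to 255 CPM in WT libraries. Its calls went both ways: 3 were higher (Dazl, Dppa3 and Dppa5a) and 2 lower (Piwil2 and Tdrd1). No gene of these lists was at 0 in all libraries. In a fit with the mean level of the leukocyte, endothelial, erythroid, Sertoli, Leydig and stromal lists as a covariate no member was called and none had an unadjusted p under 0.05, with log2 fold changes of 0.69 for Ddx58 (edgeR adjusted p = 0.955) and 0.24 for Oasl2 (0.998). That mean, on the log2 scale, was 5.03 to 5.12 in KO libraries and 5.29 to 5.33 in WT libraries, so it separated the groups by itself; standard errors grew 4.56-fold in the median and 6 genes were called in the whole table. The fit therefore could not separate these cells from the label, and it left out the duct epithelial list; the part of other cells in the higher Ddx58 and Oasl2 was not tested.

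**Figure D4:**
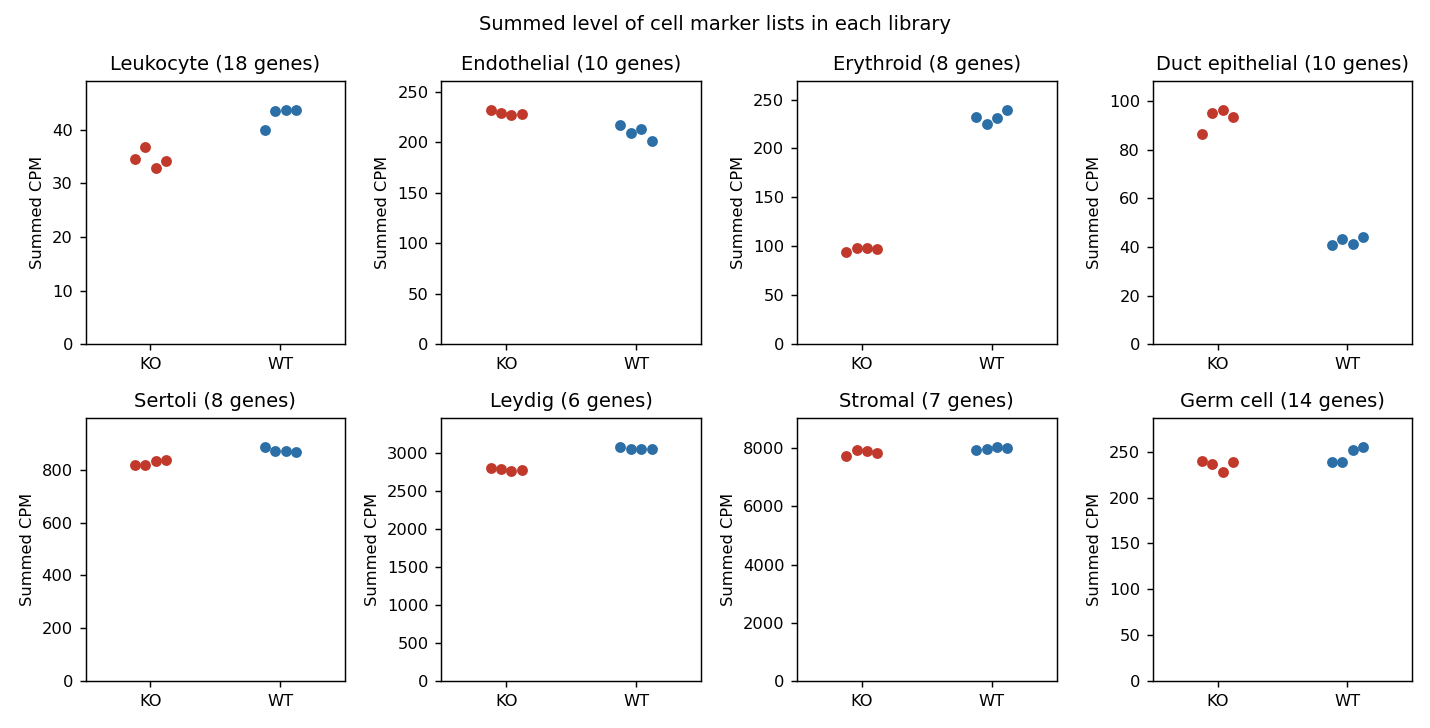
Summed CPM of 8 marker lists in each library, KO on the left and WT on the right, each panel with its own axis from 0. Duct epithelial and endothelial lists are higher in every KO library, and leukocyte, erythroid, Sertoli and Leydig lists lower. Stromal and germ-cell lists overlap, the stromal list only through KO replicate 2.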

How the data were processed

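The authors deposited 1 table of raw counts of reads per gene for 8 libraries, made from very small amounts of total RNA with a stranded kit. The build GRCm38 and the programs DESeq2, featureCounts, Subread and STAR 2.5.2b are named per the submitters' processing notes; roles and settings are not given in the sources used here. Symbols came from GENCODE M21 (55141 of 55487 IDs matched), and exons of 15 members overlap those of another gene. For 11 the other gene is on the opposite strand, which leaves their values uncertain where counting ignored strand. For the other 4, Irf9, Ifnar2, Parp14 and Rtp4, it is on the same strand, so that strand does not separate the shared reads. The test was run in R 4.3.3 with edgeR 4.0.16: filterByExpr, TMM scaling, robust quasi-likelihood test, KO over WT with no covariate, Benjamini-Hochberg adjustment over all 23190 genes tested. The member list, roles, wider list and markers were chosen with earlier results of these data known. Named in detail were called members, the 4 members per role with the smallest p, the 2 per role highest per kilobase and those with too few reads; from the wider list, called genes; other members were added for their role. CPM are scaled by TMM factors. Alternatives were other scalings and filters, DESeq2 1.42.0, limma 3.58.1 voom, the replicate number as a block, a cell-marker covariate, other thresholds and each library left out. Library pairs within a group differed by more than sampling noise (chi-squared per degree of freedom 1.68 to 3.60 over 12 pairs). This spread was small: edgeR's common coefficient of variation between libraries of a group, beyond counting noise, was 3.86%. Whether it is technical or between animals was not tested. Same-numbered libraries of the groups did not deviate together (correlations across genes of -0.016 to 0.027), so numbers were not taken as pairs. With 16346977 to 20311338 counts per library, 1 count was worth 0.0496 to 0.0611 CPM.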

Additional observations from a re-analysis of the deposited data

Results flagged for a closer look

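In 7 of the 86 groups of 4 libraries examined, 1 library lay far from the other 3; chance alone flags about 1 in 20 such groups. KO replicate 1 had 14.8 CPM of Irf9, where the other KO libraries had 12.4 to 12.8. KO replicate 2 had 6.22 CPM of Parp14 (others 4.83 to 5.02) and 1.91 CPM of Xaf1 (others 0.615 to 0.788). KO replicate 3 had 4.62 CPM of Ifitm3 (others 2.51 to 2.81), the library on which that call rests. WT replicate 2 had 1.93 CPM of Tlr3, where the other WT libraries had 1.32 to 1.39. WT replicate 1 had 14.02 CPM of Ifi27 (others 15.6 to 15.7), the value nearest the KO libraries, and the lowest summed level of leukocyte markers among WT libraries, at 39.8 CPM (others 43.4 to 43.6).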

How the results depend on the processing

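The calls of Ddx58 and Oasl2 among the members held in 17 and 16 of 18 alternatives, and no signalling gene was called in any. Over the libraries left out, the members called ranged from 1 to 2 and the induced genes called from 0 to 1, both lowest without WT replicate 2, which ended the call of Oasl2; calls in the wider list ranged from 1 (without KO replicate 3, WT replicate 3 or WT replicate 4) to 4 (without WT replicate 2). At an adjusted p under 0.01 all genes called were 678 in place of 1193 and the wider list had 1; under 0.10 the induced genes had 2, with Isg20 added, and the wider list 5. DESeq2 called 785 genes and 1 of the wider list. With the cell-marker covariate 6 genes were called, and 0 members, 0 sensors, 0 induced genes and 0 of the wider list. With the replicate block 1249 genes, 2 members and 3 of the wider list were called, and 1 of 4 KO libraries correlated best with the WT library of its own number. Scaling by library totals gave 426 genes higher and 836 lower, the upper quartile 633 and 555, against 544 and 649. The members' median of 0.037 was 0.16 with the covariate, and 0.0013 to 0.058 with 1 library left out. Some values changed sign, none of them called. With the covariate these were Ifih1 at -0.018, Dhx58 at 0.086, Mavs at -0.18, Zbp1 at 0.11, Irf1 at -0.15, Irf3 at 0.15, Stat2 at 0.24, Ifnar1 at -0.044, Isg20 at -0.39, Oas2 at -0.24, Mx1 at 0.11, Mx2 at 1.55, Bst2 at 0.37 and Gbp3 at -1.34. Tmem173 was at -0.00074 with DESeq2 size factors, -0.017 with library totals, -0.00040 with a filter of 1 CPM and -0.0014 in DESeq2, and Ifit2 at -0.015 with library totals. With 1 library left out, log2 fold changes ran from -0.098 to 0.25 for Ifih1, -0.019 to 0.094 for Mavs, -0.11 to 0.14 for Tmem173, -0.036 to 0.071 for Irf9, -0.077 to 0.14 for Ifit2, -0.39 to 0.11 for Mx1, -0.23 to 0.051 for Mx2, -0.085 to 0.037 for Bst2 and -0.046 to 0.63 for Xaf1. Apart from the library named for Oasl2 and the low power of the covariate fit shown by its standard errors, the cause was not tested. All 12 members under 1 CPM were induced genes, and 8 of these had too few reads to test.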
